A study of Mus musculus with 2 samples.

Results

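Transcripts of 10 genes of iron and haem recycling were followed across the cell classes of a mouse liver immune suspension. The 10 genes were Slc40a1, Hmox1, Blvrb, Hpgd, Slc11a1, Trf, Hp, Tfrc, Fth1 and Ftl1, taken by symbol from the 31053 genes of the deposited matrix, and all 10 were found once. The study labels 1 sample WT, from Rcrin flox mice, and 1 sample Rcrin KO, from mice with a conditional knockout of Rcrin described as being in the liver; both carry the strain label RedMUC298trTg and an age of 8 weeks. Neither what drives the deletion, nor the number of animals per sample, nor the gate of the sort is given in the sources used here. Cells were released with collagenase IV, sorted, and profiled on the 10x Genomics droplet system, in which each captured molecule carries a unique molecular identifier (UMI).

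The files of both labels were identical byte for byte, and all 11192 barcodes were shared between them. The data are therefore 1 matrix of unknown genotype. No comparison of Rcrin KO with WT was made, there is no replicate error, and no test or p-value is given. Levels are UMI per 1000000 UMI of a class (CPM) with exact Poisson 95% intervals, shares of cells carry exact Clopper-Pearson 95% intervals, and ratios of levels carry exact 95% intervals from both counts. All of these cover counting error only, not differences between animals or between cells.

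Iron recycling begins when macrophages take up old red cells. Haem oxygenase 1 (Hmox1) opens the haem ring, releasing iron and leaving the pigment biliverdin. Blvrb encodes biliverdin reductase B. The iron is stored in ferritin, a shell of heavy (Fth1) and light (Ftl1) chains, or leaves the cell through ferroportin (Slc40a1), the known cellular iron exporter. Transferrin (Trf) carries iron in plasma and delivers it through the transferrin receptor (Tfrc), and haptoglobin (Hp) binds free haemoglobin. Slc11a1 pumps divalent metals out of the phagosome. Hpgd, which inactivates prostaglandins, is not an enzyme of iron or haem and stands in the list by its symbol. Kupffer cells are the resident liver macrophages, and hepatocytes secrete most plasma transferrin, haptoglobin and albumin.

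Of the 10 genes, 4 hold the letters of an iron-responsive element in an annotated untranslated region (UTR), the RNA hairpin to which iron regulatory proteins bind when iron is low. In the 5′ UTR such binding is known to block translation, and in the 3′ UTR to protect the transcript. The search, on the transcript strand only, was for an unpaired C, 5 bases, the 6-base loop CAGTGN and 5 more bases, where the 5 bases on each side of the loop could pair, G with U included. It found 1 site in the 5′ UTR of Slc40a1, Fth1 and Ftl1 and 4 in the 3′ UTR of Tfrc. Of 21877 protein-coding genes, 160 (0.731%) held a match in a UTR. Among 63 other iron and haem genes the match found was in Alas2. Matches on 1 chromosome, which holds none of the 10 genes, were left out for these 63 but not for the 160. Alas2 may therefore not be the only match among the 63. A match is a description of letters, and translation was not measured. The sites are shown 5′ to 3′ from GENCODE transcripts on GRCm38, with the loop in capitals. They lie at chr1:45925465-45925493 on the minus strand (Slc40a1), chr19:9982732-9982760 on the plus strand (Fth1), chr7:45459779-45459807 on the minus strand (Ftl1) and, as an example from Tfrc, at chr16:32631219-32631247 on the plus strand. The ferritin elements share their stem letters next to the loop, and the loops differ in their last base.
Slc40a1: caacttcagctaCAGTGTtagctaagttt
Fth1: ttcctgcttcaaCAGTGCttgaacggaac
Ftl1: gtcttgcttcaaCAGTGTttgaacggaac
Tfrc: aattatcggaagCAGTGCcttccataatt

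The matrix held 67037274 UMI, and 10366 barcodes passed limits of 500 UMI and 200 genes from below and a mitochondrial share of 10% from above, with a median of 4343.5 UMI. Each cell was assigned to the class with the highest share of detected markers, out of lists that contain none of the 10 genes, provided at least 3 markers were detected. In all, 9054 cells (87.3%) received a class, 1217 had markers of 2 classes and were set aside, and 95 had no class. The 12 classes with at least 30 cells were ranked. In each of them at least 3 class markers were found among the 10 genes with the highest fold over the other ranked classes. The cells were gated on these same markers, so this is not an independent check of the classes. A gate is a range on a marker count: 118 cells had exactly 3 markers, in 490 cells with a class the share of a second class was within 0.1 below the limit of 0.6, and in 239 cells set aside it was within 0.1 above it. Depth differed between classes, from a median of 2563 UMI in neutrophil-like to 18729 UMI in plasma-like cells.

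Among the ranked classes, Kupffer-like cells had the highest level of 6 of the 10 genes. These were Slc40a1, Hmox1, Blvrb, Hpgd, Slc11a1 and Trf. Trf was higher still in classes too small to rank, the hepatocyte-like (3502 CPM, 11 cells) and cholangiocyte-like cells (928 CPM, 11 cells). Fth1 and Hp were highest in neutrophil-like, Ftl1 in basophil or mast-like and Tfrc in plasmacytoid dendritic-like cells. Over the 11491 genes with at least 100 UMI in the ranked classes, 8.44% were highest in Kupffer-like, 6.03% in neutrophil-like, 6.45% in basophil or mast-like and 8.9% in plasmacytoid dendritic-like cells. The median log2 ratio of Kupffer-like cells over all other ranked cells, with 1 CPM added, was 3.48 for the 10 genes and -0.31 for all genes tested. For 7 of the 10 the highest level was at least 2 times that of the next class, against 22.8% of all genes tested. Kupffer-like cells were that highest class for 5 of the 7, against 2.16% of all genes tested. The 10 genes were chosen with earlier results of these data known, so these counts are a description.

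**Figure D1:**
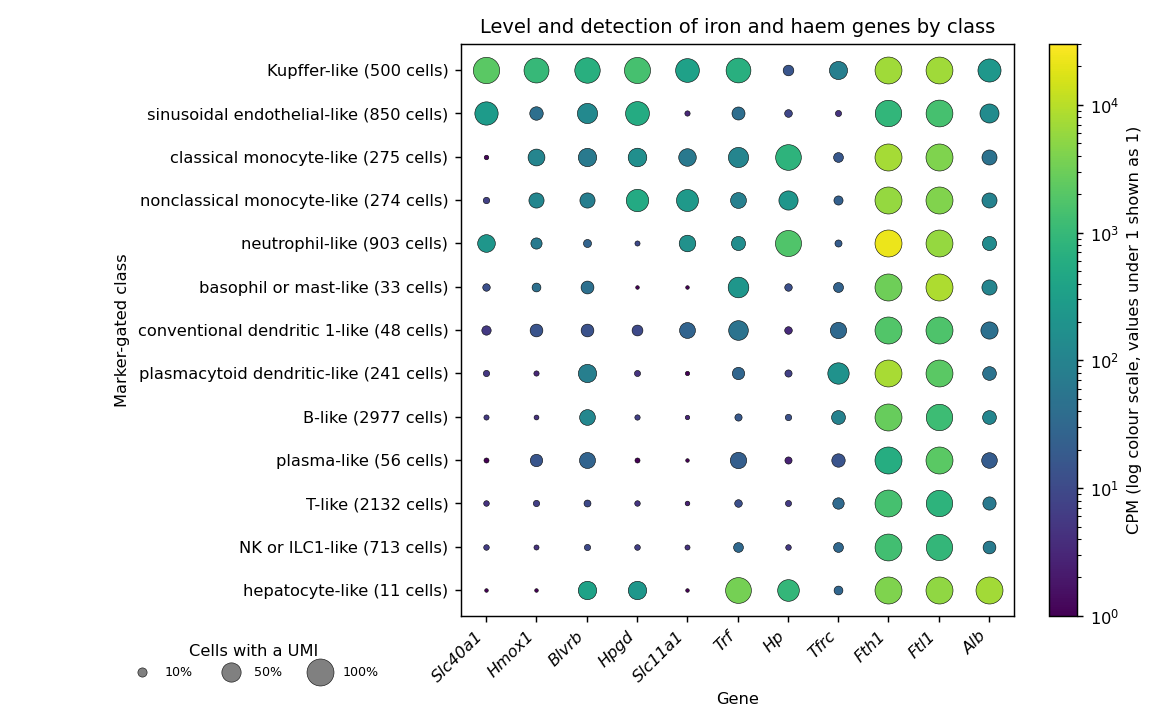
Dot plot of the 10 genes and Alb (columns) over the 12 ranked classes and the 11 hepatocyte-like cells (rows); colour is CPM on a log scale and dot area rises with the share of cells with at least 1 UMI. Among the ranked classes the Kupffer-like row is the highest for Slc40a1 (2154 CPM), Hmox1 (1015 CPM), Blvrb, Hpgd, Slc11a1 and Trf, and the neutrophil-like row for Fth1 (21789 CPM) and Hp (1777 CPM).

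Slc40a1, the iron exporter, was clearly above its level in B-like cells in 3 classes. Kupffer-like cells held 2154 CPM (2117 to 2192), the endothelial-like cells of the liver sinusoids 273 CPM (260.0 to 286) and neutrophil-like cells 229 CPM (211 to 248). In each of the other 9 ranked classes it was at 12.6 CPM or below. The Kupffer-like level was 7.90-fold (7.51 to 8.31) the endothelial-like level, and the latter 1.19-fold (1.09 to 1.31) the neutrophil-like level. A UMI was found in 94.6% of Kupffer-like (92.2 to 96.4%), 73.9% of endothelial-like (70.8 to 76.8%) and 41.5% of neutrophil-like cells (38.3 to 44.8%), against 1.98% of B-like cells, whose 5.82 CPM can serve as a level of free RNA. The median depths were 12798, 7021, 2563 and 3242 UMI in that order. With each cell thinned to 1000 UMI the shares were 79.3, 25.6 and 22.4%, and 0.64% in B-like cells.

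The number of Slc40a1 UMI per UMI of Clec4f, a lectin gene used to gate Kupffer cells, differed between classes. The gate itself favours Clec4f in Kupffer-like cells and disfavours it elsewhere, so the ratio depends in part on the gate. B-like and T-like cells did not share the Kupffer-like ratio either. Whether Slc40a1 counts outside Kupffer-like cells came from free RNA was not tested. There were 0.471 Slc40a1 UMI per Clec4f UMI in Kupffer-like cells (0.461 to 0.481), and 0.216 in B-like (0.161 to 0.285) and 0.230 in T-like cells (0.169 to 0.309). The ratio was 13.2 in endothelial-like (11 to 15.9) and 6.94 in neutrophil-like cells (5.54 to 8.80). In classical monocyte-like cells Slc40a1 was at 1.20 CPM, from 3 UMI in 275 cells, although these cells are of the myeloid lineage too. In the 827 neutrophil-like cells without any haemoglobin UMI, Slc40a1 was at 231 CPM (212 to 251), close to the 229 CPM of the whole class.

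Hmox1 was at 1015 CPM (989 to 1041) in Kupffer-like cells, 8.90-fold (7.63 to 10.4) the next class. The monocytes followed, with 114 CPM (97.5 to 133) in nonclassical and 110.3 CPM (97.7 to 124) in classical monocyte-like cells, and these neighbours did not differ beyond counting error (ratio 1.03, 0.849 to 1.26). Neutrophil-like cells were at 66.3 CPM, basophil or mast-like at 44.0 CPM and endothelial-like cells at 40.9 CPM. All lymphoid classes other than plasma-like cells (15.2 CPM) were below 7 CPM. Detection was 85.2% of Kupffer-like (81.8 to 88.2%) and 1.51% of B-like cells, or 47.1 and 0.54% after thinning to 1000 UMI.

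Blvrb had a wider distribution than Slc40a1 or Hmox1. It was at 654 CPM (634 to 676) in Kupffer-like cells, 5.09-fold (4.72 to 5.49) the 129 CPM (120 to 138) of endothelial-like cells. B-like cells came next with 118 CPM (111 to 124), a ratio to endothelial-like cells of 1.09 whose interval (0.999 to 1.19) includes 1. A UMI of Blvrb was present in 32.7% of B-like (31.0 to 34.4%) but 4.97% of T-like cells (4.09 to 5.98%), although T-like cells were deeper (median 5046 against 3242 UMI). Plasmacytoid dendritic-like cells held 82.1 CPM, and both monocyte classes 78.1 and 67.9 CPM. T-like and NK or ILC1-like cells, innate lymphocytes, were lowest at 9.86 and 9.83 CPM.

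Hpgd and Slc11a1 were shared between Kupffer-like cells and other myeloid or endothelial classes. Hpgd was at 1409 CPM (1379 to 1440) in Kupffer-like cells, 2.62-fold (2.51 to 2.72) the 539 CPM of endothelial-like cells. Nonclassical monocyte-like cells reached 526 CPM (490 to 565), which did not differ from the endothelial-like level beyond counting error (ratio 1.02, 0.946 to 1.11). Classical monocyte-like cells were lower, at 162 CPM (147 to 179), and neutrophil-like cells were at 9.85 CPM. Slc11a1 was at 348 CPM (333 to 364) in Kupffer-like, 256 CPM (231 to 283) in nonclassical monocyte-like, 180 CPM (164 to 196) in neutrophil-like and 65.5 CPM (55.9 to 76.4) in classical monocyte-like cells. The ratio of the 2 highest classes was 1.36 (1.22 to 1.52), and after thinning to 1000 UMI the log2 ratio was 0.07 in place of 0.44. Endothelial-like cells held 3.13 CPM of Slc11a1, a level like that of B-like cells (3.0 CPM), so the phagosomal transporter and ferroportin differed in their second class.

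Hmox1 had a long tail among Kupffer-like cells. In the 357 Kupffer-like cells that could be thinned to 5000 UMI, the quartiles of Slc40a1 were 6, 9 and 13 UMI with a highest value of 37, and those of Hmox1 were 1, 3 and 5 UMI with a highest value of 47. The variance over the mean was 10.6 for Hmox1, 8.91 for Fth1, 5.39 for Ftl1 and 3.53 for Slc40a1, against 1.43 for Trf, 1.21 for Blvrb and 1.16 for Slc11a1, where sampling alone gives about 1; the measure is higher for genes with a higher mean at the same relative spread. The 36 cells with the most Hmox1 held 46.6% of its UMI, whereas the 36 with the most Slc40a1 held 22.7% of its own. For Tfrc, with a median of 0 UMI and a variance over the mean of 1.77, this share was 58.7%. Such a share is high for any gene with few UMI per cell, and it was 100% for Hp at a mean of 0.0532 UMI. It therefore cannot be compared between Hmox1 and Tfrc. Across these cells Spearman's rho was 0.36 for Slc40a1 with Hmox1, 0.35 for Fth1 with Ftl1 and 0.30 for Hmox1 with Fth1. These were the highest values among all pairs of the genes followed, and every other pair lay between -0.085 and 0.231. Slc40a1 was at 0.086 with Fth1 and 0.052 with Ftl1, and Hmox1 at 0.14 with Ftl1 and 0.10 with Blvrb. All are a description over cells that share 1 library. The other 143 Kupffer-like cells, with under 5000 UMI, held Slc40a1 at 0.881-fold (0.803 to 0.966), Hmox1 at 1.07-fold (0.945 to 1.21) and Slc11a1 at 0.680-fold (0.517 to 0.879) the level of the deeper cells.

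**Figure D2:**
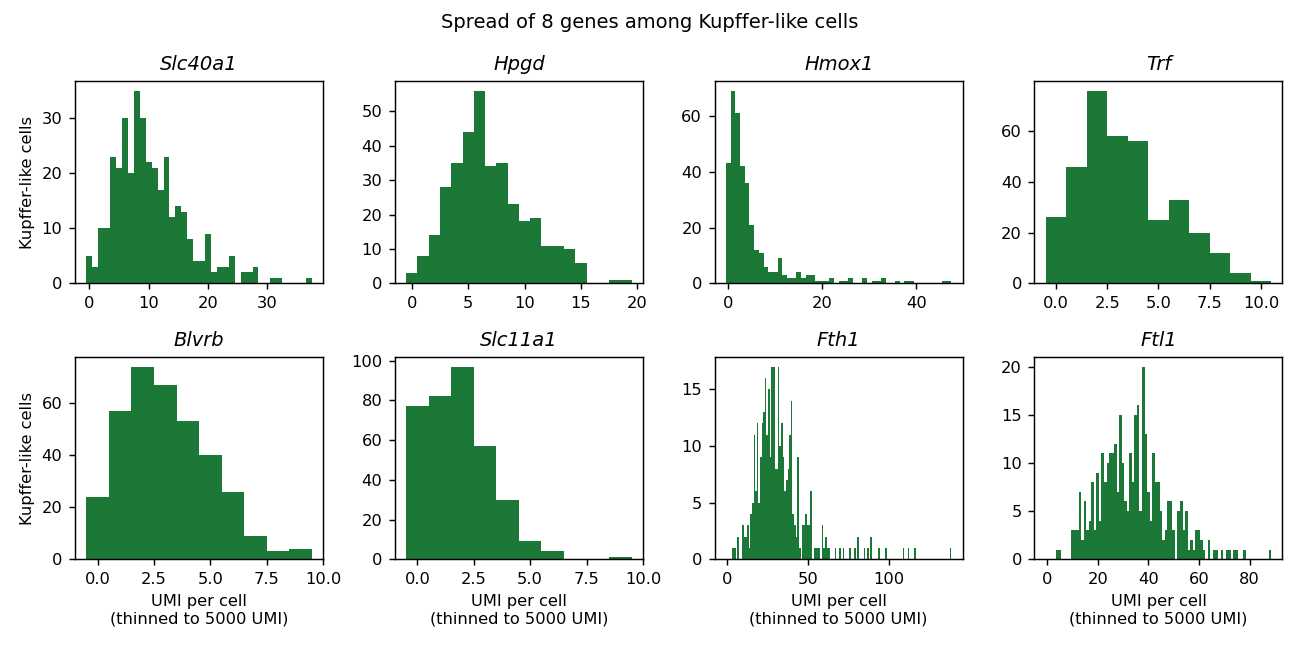
Histograms of UMI per cell (x axis) against number of cells (y axis) for 8 genes in the 357 Kupffer-like cells thinned to 5000 UMI. Slc40a1 and Hpgd are centred at a median of 9 and 6 UMI, whereas Hmox1 has a median of 3 and a tail that reaches 47 UMI.

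Trf was high relative to albumin transcripts in Kupffer-like cells. Albumin (Alb) is a hepatocyte transcript and was detected in every ranked class, at 19.7 to 234 CPM, which sets the level of free hepatocyte RNA. The 11 hepatocyte-like cells held 7177 CPM of Alb, 3502 CPM of Trf and 926 CPM of Hp, that is 0.488 Trf (0.389 to 0.609) and 0.129 Hp (0.0864 to 0.187) per Alb UMI. Kupffer-like cells held 2.84 Trf UMI per Alb UMI (2.67 to 3.02), at 665 CPM (644 to 686) of Trf, 2.94-fold (2.12 to 4.2) the next class. Classical monocyte-like cells had a ratio of 2.22 (1.79 to 2.76) at 109.9 CPM, basophil or mast-like cells 2.12 (1.16 to 4.02) at 226 CPM, and neutrophil-like cells 1.07 (0.929 to 1.24) at 148 CPM. In B-like, T-like and endothelial-like cells the ratio was 0.147, 0.194 and 0.293, below that of the hepatocyte-like cells, with 12.4 to 40.4 CPM of Trf. It was 0.470 in NK or ILC1-like, 0.577 in plasmacytoid dendritic-like and 0.886 in nonclassical monocyte-like cells. Plasma-like cells were at 1.09 (0.586 to 2.04) and conventional dendritic 1-like cells at 1.16 (0.733 to 1.84). The ratio in 11 gated hepatocyte-like cells need not be that of free RNA. The hepatocyte transcripts Apoa1 and Ttr did not stand out in Kupffer-like cells. Per Alb UMI, Apoa1 was at 0.163 in Kupffer-like (0.141 to 0.188), 0.173 in B-like (0.148 to 0.200) and 0.218 in hepatocyte-like cells. Ttr was at 0.116, 0.117 and 0.468 in the same order. Both are markers of the hepatocyte gate, which Trf is not, so cells rich in them were classed as hepatocyte-like or set aside. They are therefore not an independent reference for Trf.

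Hp transcripts came from neutrophil-like and monocyte-like cells. Hp was at 1777 CPM (1727 to 1829) in neutrophil-like, 777 CPM (743 to 812) in classical monocyte-like and 229 CPM (205 to 255) in nonclassical monocyte-like cells, and these 3 levels were separated by ratios of 2.29 (2.17 to 2.41) and 3.39 (3.02 to 3.82). Neutrophil-like cells held 52.6% of all Hp UMI of the kept barcodes and the hepatocyte-like cells 0.36%. Per Alb UMI there were 12.9 Hp UMI in neutrophil-like (11.6 to 14.3), 15.7 in classical monocyte-like (13.1 to 19.0) and 2.41 in nonclassical monocyte-like cells (1.97 to 2.95). The other 9 ranked classes lay between 0.0640 and 0.144 Hp per Alb, with 15 CPM or less, so their Hp could not be told from free hepatocyte RNA at this depth. Kupffer-like cells were among them, with 15 CPM (12 to 18.5) of Hp and 0.0640 per Alb UMI (0.0509 to 0.0795). The transcripts of the haemoglobin-binding protein and of transferrin had opposite orders in the macrophage and neutrophil classes.

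**Figure D3:**
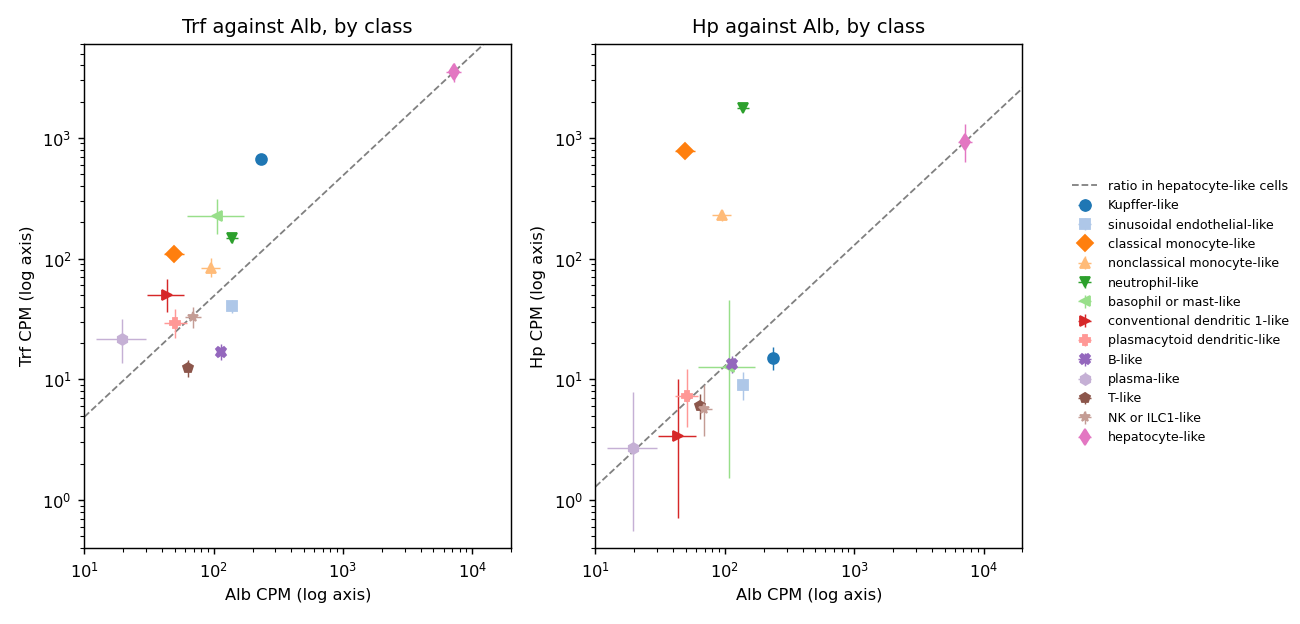
Trf (left) and Hp (right) CPM against Alb CPM for the 12 ranked classes and the hepatocyte-like cells, both axes on a log scale, with 95% Poisson intervals as bars. The dashed line is the ratio in hepatocyte-like cells (0.488 for Trf, 0.129 for Hp); Kupffer-like, classical monocyte-like and basophil or mast-like cells lie farthest above it for Trf, and neutrophil-like and both monocyte-like classes for Hp.

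Ferritin transcripts were present in nearly every cell, and the balance of heavy to light chain transcripts differed between classes. Fth1 was at 21789 CPM in neutrophil-like cells, 2.80-fold (2.75 to 2.85) the 7795 CPM of plasmacytoid dendritic-like cells. Classical monocyte-like (7370 CPM), Kupffer-like (6854 CPM) and nonclassical monocyte-like cells (5942 CPM) followed, and endothelial-like (876 CPM) and plasma-like cells (581 CPM) were lowest. Classical monocyte-like cells came before plasmacytoid dendritic-like cells under 3 of 8 alternatives: at most 5% mitochondrial UMI, thinning and clusters in place of gates. Ftl1 was at 8417 CPM (7972 to 8880) in the 33 basophil or mast-like cells, 7022 CPM in Kupffer-like and 5793 CPM in neutrophil-like cells, and lowest in T-like cells at 799 CPM. The ratio of basophil or mast-like to Kupffer-like cells was 1.20 (1.13 to 1.27).

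The number of Fth1 UMI per Ftl1 UMI, which does not depend on the total of a class, ranged from 0.267 (0.244 to 0.291) in plasma-like to 3.76 (3.69 to 3.83) in neutrophil-like cells. Plasmacytoid dendritic-like cells at 3.68 (3.55 to 3.81) were next to the neutrophil-like cells, and their intervals overlapped. B-like cells were at 2.37, T-like at 1.80, classical monocyte-like at 1.82 and NK or ILC1-like cells at 1.46. In Kupffer-like cells the ratio was 0.976 (0.963 to 0.990), in endothelial-like cells 0.620 (0.60 to 0.641) and in basophil or mast-like cells 0.369 (0.332 to 0.410). Both genes have near-identical pseudogene copies, so the counts are uncertain to the extent that reads were split. The annotated copy Ftl1-ps1 held 185 CPM in Kupffer-like and 93.6 CPM in neutrophil-like cells.

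**Figure D4:**
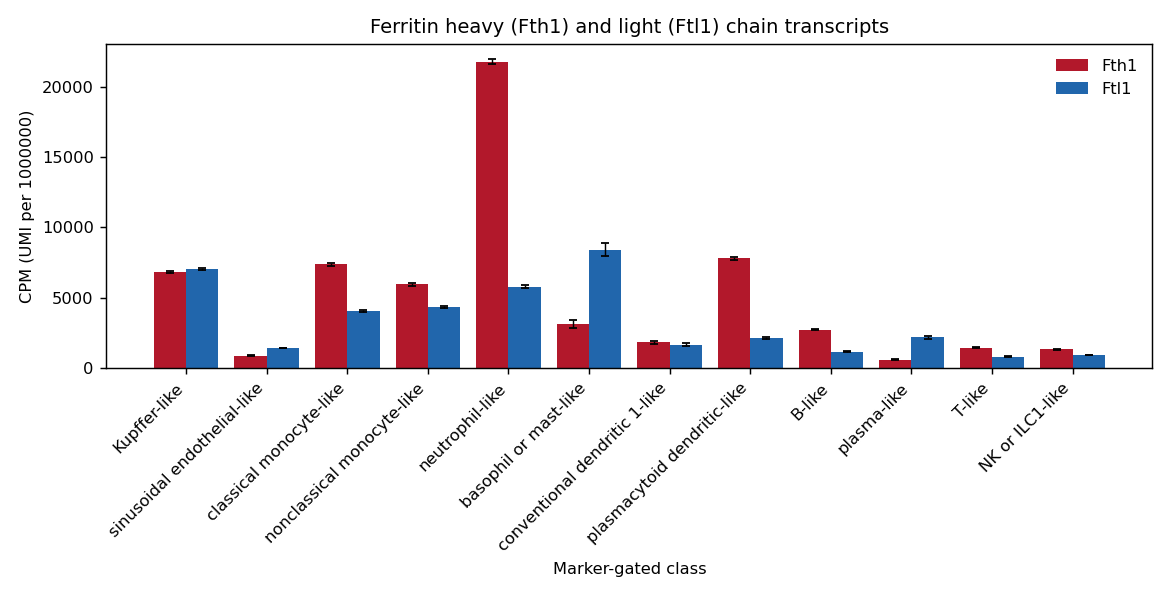
Bars of Fth1 and Ftl1 CPM (linear axis from 0) in the 12 ranked classes, with 95% Poisson intervals. Fth1 stands at 21789 CPM in neutrophil-like cells against 5793 CPM of Ftl1, whereas basophil or mast-like, endothelial-like, plasma-like and, by a small margin, Kupffer-like cells have more Ftl1 than Fth1 CPM.

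Tfrc, the uptake receptor, followed a different order from the recycling genes. Plasmacytoid dendritic-like cells held 181 CPM (163 to 202), 1.88-fold (1.66 to 2.13) the 96.4 CPM (90.6 to 102.5) of B-like cells. Kupffer-like cells came next with 82.5 CPM (75.3 to 90.3), and B-like cells were 1.17-fold (1.05 to 1.31) higher. With at most 5% mitochondrial UMI this order turned, and Kupffer-like cells were next to plasmacytoid dendritic-like cells at 90.8 CPM. From T-like cells at 33.7 CPM (30.5 to 37.1) down to plasma-like cells at 14.3 CPM (8.17 to 23.2), no neighbours in the order differed beyond counting error. The intervals at the ends of this range did not overlap. Endothelial-like cells were lowest at 4.54 CPM (3.04 to 6.52), although they were next to Kupffer-like cells for Slc40a1. Cells with at least 3 of 9 proliferation genes were numerous enough to compare in the T-like class, where the 110 such cells held 40.0 CPM of Tfrc and the other 2022 held 32.7 CPM, a ratio of 1.22 whose interval (0.920 to 1.60) includes 1. In plasmacytoid dendritic-like and B-like cells, 3 of 241 and 10 of 2977 cells carried such genes.

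Neutrophil-like cells were split by 5 markers of immature neutrophils, the granule genes Ngp, Camp, Mmp8, Cd177 and Chil1, and 116 of 903 cells had at least 3 of them. These cells held less ferritin transcript: Fth1 was at 12042 against 24452 CPM (ratio 0.492, 0.480 to 0.505) and Ftl1 at 2962 against 6567 CPM (0.451, 0.428 to 0.475). Slc11a1 was at 86.5 against 205 CPM (0.422, 0.307 to 0.568), Hmox1 at 31.8 against 75.7 CPM (0.420, 0.242 to 0.685) and Slc40a1 at 162 against 247 CPM (0.658, 0.521 to 0.823). Trf was at 108 against 159.6 CPM, a ratio of 0.675 (0.505 to 0.889). Hp was at 1868 against 1752 CPM, a ratio of 1.07 (0.994 to 1.14), so that its level did not differ beyond counting error. Transcripts of iron-binding granule proteins went the other way. Lactoferrin (Ltf) was at 5506 against 4.82 CPM, and lipocalin 2 (Lcn2), which binds bacterial siderophores, at 9957 against 1334 CPM. The split itself was made on granule genes, so the direction of these transcripts is not an independent result. CPM of all genes depend on the rest of the cell's RNA, and S100a9 took 158358 CPM of the immature-marker cells against 74515 CPM of the others. Alb, the sign of free RNA, was at 40.6 against 165 CPM, and the median depth was 4312 against 2476 UMI; the part of these in the differences was not tested.

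**Figure D5:**
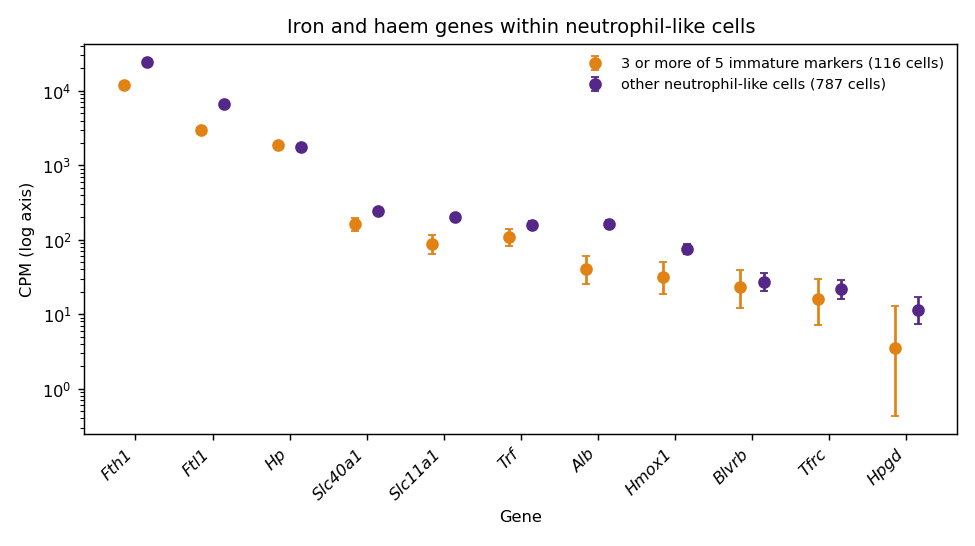
CPM on a log axis of the 10 genes and Alb in neutrophil-like cells with at least 3 of 5 immature markers (116 cells) and in the other neutrophil-like cells (787 cells), with 95% Poisson intervals. Fth1, Ftl1, Slc40a1, Slc11a1, Hmox1 and Trf are lower in the immature-marker cells, whereas Hp is at 1868 and 1752 CPM.

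The 63 other genes of iron and haem handling were less concentrated in Kupffer-like cells. Of these, 51 had at least 100 UMI, and 15 were highest in Kupffer-like, 14 in endothelial-like and 6 in neutrophil-like cells. For 6 of the 15, Slc11a2, Steap3, Hpx, Ncoa4, Hfe and Keap1, the Kupffer-like level did not differ from the next class beyond counting error. Hpx, a hepatocyte transcript, was at 20.5 CPM in Kupffer-like and 521 CPM in hepatocyte-like cells. Of the 14 and the 6, 3 and 1 did not differ from the next class. The background shares over all genes tested were 8.44, 23.9 and 6.03%. The median log2 ratio of Kupffer-like over other cells was 0.19 for the 51 genes, against -0.31 for all genes tested, and 28 of them (54.9%) were above 0, against 37.1% of all genes tested. By group, 6 of 11 genes of iron and haem uptake and transfer were highest in Kupffer-like cells, 3 of 8 of storage and release, 4 of 16 of regulation, and 2 of 16 of haem synthesis, breakdown and mitochondrial iron.

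Among the uptake genes, Cd163, the scavenger receptor for haptoglobin bound to haemoglobin, reached 486 CPM in Kupffer-like cells, with 10.5 CPM in the next class. Lrp1, a receptor for haem bound to haemopexin, was at 495 CPM in Kupffer-like and 321 CPM in nonclassical monocyte-like cells, and Slc48a1, which moves haem out of the lysosome, at 114 and 50.3 CPM in Kupffer-like and basophil or mast-like cells. The metal importer Slc39a8 was at 246 CPM in endothelial-like and 6.72 CPM in Kupffer-like cells, and the metalloreductase gene Steap4 at 107.6 CPM in neutrophil-like cells. Spic, a transcription factor of iron-recycling macrophages, was at 153 CPM in Kupffer-like and 21.1 CPM in nonclassical monocyte-like cells. Blvra and Hmox2, the other biliverdin reductase and haem oxygenase genes of the list, were highest in Kupffer-like cells too, at 116 and 152 CPM.

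Endothelial-like cells had the highest level of Bmp2 and Bmp6, secreted signals known to act on hepatocyte hepcidin. Bmp2 was at 1721 CPM in endothelial-like and 9.30 CPM in Kupffer-like cells, and Bmp6 at 59.8 CPM in endothelial-like cells. The inhibitor gene Smad6 was at 191 and 23.6 CPM in these classes, and Smad7 at 309 CPM in endothelial-like and 317 CPM in B-like cells (ratio 1.03, 0.972 to 1.09). Ncoa4, the receptor for ferritin breakdown, was at 223 CPM in Kupffer-like and 220.2 CPM in basophil or mast-like cells, and Hfe at 243 and 239.8 CPM in Kupffer-like and nonclassical monocyte-like cells; in both pairs the interval of the ratio included 1. Fbxl5, which directs the loss of iron regulatory protein 2, was highest in neutrophil-like cells at 392 CPM. Nfe2l2 and Bach1, the activator and repressor of Hmox1, were highest in nonclassical (630 CPM) and classical monocyte-like cells (372 CPM), though for Nfe2l2 the ratio to neutrophil-like cells was 1.08 (0.998 to 1.18).

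The other named genes of the list were spread over classes. The iron chaperones Pcbp1 and Pcbp2 were highest in endothelial-like (409 CPM) and conventional dendritic 1-like cells (542 CPM), and the mitochondrial iron importer Slc25a37 in endothelial-like cells (113 CPM). Maf was at 3522 CPM in endothelial-like and 1171 CPM in Kupffer-like cells, and Id1, a target gene of bone morphogenetic proteins, at 673 CPM in basophil or mast-like and 501 CPM in Kupffer-like cells. Mafg and Mafk, small Maf partners of Nfe2l2 and Bach1, were highest in the 33 basophil or mast-like cells at 189 and 145 CPM, and for Mafg the ratio to endothelial-like cells, 1.35 (0.904 to 1.94), had an interval that includes 1. Ltf and Lcn2 were at 1185 and 3184 CPM in neutrophil-like cells and below 7 CPM in every other ranked class.

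The genes most like each of the 10 in their pattern were found by Pearson's r of log2 CPM, with 1 added, over the 12 ranked classes, which share 1 library. The closest to Slc40a1 were Pf4 (0.91), Ptgs1 (0.90) and the haemoglobin gene Hba-a1 (0.87), and among the closest to Hmox1 were Ninj1 (0.89) and Cxcl1 (0.88). All Hba-a1 UMI of Kupffer-like cells came from 28 of these cells, with none in the other 472, so this likeness is one of class levels only. Hp was most like Thbs1 (0.99), Mcemp1 (0.96) and Sgms2 (0.96), and Slc11a1 like Tlr13 (0.95), Fcgr4 (0.95) and Treml4 (0.94). Among the genes most like Hpgd were Cd302 (0.97) and Hspa1a (0.95), and Blvrb was most like Dnase2a (0.88), Fam43a (0.84) and Evi5 (0.84). Trf was most like Pla2g4a (0.95), Ftl1-ps1 (0.95) and Hk3 (0.92), Ftl1 like Ftl1-ps1 (0.96), Ccl6 (0.92) and Zfp36 (0.91), and Fth1 like Pirb (0.91), B430306N03Rik (0.91) and Prdx5 (0.91). The closest to Tfrc were Mgat4a (0.80), Gpm6b (0.78) and Cd72 (0.78). Pf4 is a marker of the platelet or megakaryocyte gate and Treml4 of the nonclassical monocyte gate, so the gates shaped their patterns in part.

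Cells set aside for markers of 2 classes held part of the transcripts of these genes, 38.5% of all Slc40a1 UMI and 38.6% of all Hmox1 UMI. The 212 cells in which Kupffer and endothelial markers met had a median of 23676 UMI, against 12798 UMI in Kupffer-like cells. They held Slc40a1 at 1467 CPM, 0.681-fold (0.662 to 0.701) the Kupffer-like level, Hmox1 at 689 CPM and Clec4f at 2588 CPM, 0.565-fold (0.554 to 0.577). Stab2, an endothelial marker, was at 434 CPM in them and 78.4 CPM in Kupffer-like cells. Of all 1217 cells set aside, Scrublet called 312 doublets, out of 351 calls in the kept barcodes.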

How the data were processed

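The deposited values are UMI counts, whole numbers that were not normalized. The tools Seurat 2.3.4, STAR and Cell Ranger 2.1.1 and the mm10 build are named in the submitters' processing notes, and the matrix header names software version 3.0.0; the rule for calling cells, the annotation release and the use of strand in counting are not given in the sources used here. Trf overlaps the annotated gene Gm20425 on its own strand. Kept barcodes had 500 UMI or more, 200 genes or more and no more than 10% mitochondrial UMI, and 56 and 778 of 11192 fell outside the last 2 limits. A second class with at least 0.6 of the share of the first set a cell aside; doublet calls (Scrublet in scanpy 1.11.5) were kept in the main values and removed in an alternative. Counts were summed per class. The precision is that of counting: 3 counts are 0.517 CPM in Kupffer-like and 18.9 CPM in basophil or mast-like cells. Thinning drew UMI without replacement with a fixed seed and left out 56 Kupffer-like and 6 B-like cells with under 1000 UMI. With 1 matrix there are no groups to test. The finding of the highest class and the Poisson intervals were tested on Poisson counts drawn from class totals, with some genes raised in a class. That simulation held no free RNA, doublets, gating or spread between cells, so it does not test their part in the results. Python 3.11.15, numpy 2.4.6 and scipy 1.17.1 were used. The members, marker lists and pathway lists were chosen with earlier results of these data known; the gating rule, the ratios to Clec4f and the subsets of a class were set after the counts were seen. Named pathway genes are those with at least 100 CPM in their highest class; Bmp6, Hpx, Ftl1-ps1, genes that did not differ from the next class and genes beside a ratio were chosen after their values were seen. Alternatives were the mitochondrial limit, higher UMI and gene limits, doublet removal, 4 markers per gate, a reduced CPM total, means over cells, thinning and clusters in place of gates. Some genes of similar pattern are not reported here.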

Additional observations from a re-analysis of the deposited data

How the results depend on the processing

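The number of the 10 genes highest in Kupffer-like cells was 6 under each of the 8 alternatives, and all 10 genes kept their highest class in each. The count of other pathway genes highest in Kupffer-like cells was 13 to 16, against 15. Of 80 ratios of a gene's highest class to the next under these alternatives, 66 stayed within the counting interval of the main value. With at most 5% mitochondrial UMI, Kupffer-like cells held 827 CPM of Hmox1 and 1837 CPM of Slc40a1. The log2 ratio to the next class was then 2.65 for Hmox1, against 3.15, and 2.78 for Slc40a1, against 2.98. The median mitochondrial share of Kupffer-like cells was 6.11%, above that limit. The next class changed for 5 of the 10 genes: for Fth1 to classical monocyte-like cells and for Hpgd to nonclassical monocyte-like cells under 3 alternatives each, for Blvrb to B-like or basophil or mast-like cells under 2, and for Tfrc to Kupffer-like and Hmox1 to classical monocyte-like cells under 1 each. The Ftl1 difference between basophil or mast-like and Kupffer-like cells was 0.04 on the log2 scale with clusters in place of gates, against 0.26. The log2 ratio of Tfrc in plasmacytoid dendritic-like over B-like cells was 1.46 with at most 5% mitochondrial UMI, against 0.91. No paired analysis was possible because both labels hold the same matrix, and no sample could be left out. Depth limits the rare classes most: the basophil or mast-like cells held 158966 UMI in all.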

Other observations

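Haemoglobin transcripts were concentrated in few Kupffer-like cells. At least 1 UMI of 4 haemoglobin genes was present in 28 of 500 Kupffer-like, 184 of 2977 B-like and 76 of 903 neutrophil-like cells, while their summed level was 644 CPM in Kupffer-like, 26.0 CPM in B-like and 267 CPM in neutrophil-like cells. In the 28 Kupffer-like cells Hbb-bs was at 3447 CPM and Hba-a1 at 2803 CPM. These cells held Hmox1 at 1169 CPM against 1004 CPM in the other 472 Kupffer-like cells (ratio 1.16, 1.06 to 1.28), Tfrc at 122 against 79.6 CPM (1.53, 1.12 to 2.06) and Fth1 at 5929 against 6923 CPM (0.856, 0.821 to 0.893), with Slc40a1 at a ratio of 1.06 (0.992 to 1.14). Their median depth was 16403 against 12747 UMI. The intervals cover counting error only. Hmox1 and Fth1 varied widely between Kupffer-like cells, with a variance over the mean of 10.6 and 8.91 after thinning to 5000 UMI. Whether the 28 cells differed beyond that spread was not tested. Of 8 erythroid markers, 4 were at 0 in Kupffer-like cells, and the list summed to 6.55 CPM.

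Hmox1 also had a long tail in classical monocyte-like cells. In the 269 such cells thinned to 5000 UMI the median was 0 and the highest value 37 UMI, and the 27 cells with the most held 71.0% of the UMI. The variance over the mean was 12.1 for Hmox1, 12 for Fth1, 5.95 for Ftl1, 1.95 for Hp and 1.24 for Trf in the same cells, and this measure is higher for genes with a higher mean at the same relative spread.

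T-like cells and the 349 cells with markers of both T and NK or ILC1 cells differed in Trf, at 12.4 and 30.9 CPM (ratio 2.49, 1.80 to 3.41), with Alb at 63.7 and 89.8 CPM. NK or ILC1-like cells held a similar level of Trf, 32.7 CPM (26.7 to 39.6), with Alb at 69.5 CPM.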
